A study of Mus musculus with 18 samples.

Results

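Kidneys of mice lacking Ecm1 (KO) were compared with wild-type kidneys (WT) at 4 weeks of age, with 3 libraries in each group, numbered here as in their labels (KO 1 to KO 3 and WT 1 to WT 3). These 6 were all the libraries labelled with this age and these genotypes, of 18 libraries of whole kidney taken at 1, 2 and 4 weeks. Polyadenylated RNA of the tissue was sequenced, and an estimated count per gene was deposited for every library. The labels name no strain or sex and do not say how the Ecm1 allele was made. Nor do they state that each library is a different animal, so p-values reflect only library-to-library spread, some of which may be technical.

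Ecm1 encodes a secreted glycoprotein that binds other components of the matrix around cells, and the study's title concerns its supply by mesangial cells, which support the capillary tuft of the glomerulus. The mouse kidney matures in the weeks after birth: nephron formation ends, the proximal tubule gains transporters and metabolic enzymes, and matrix and developmental genes decline. Around puberty, androgens raise a further set of proximal tubule genes in males, among them carriers of organic ions and cytochrome P450 enzymes.

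The total counts of the 6 libraries ran from 14930565 to 19873611, and mitochondrial transcripts took 18.4% to 21.7% of them. Y-linked genes summed to 146, 161 and 142 CPM (counts relative to the library's total, rescaled for composition by the TMM method) in WT 1 to WT 3, to 177 and 132 CPM in KO 1 and KO 2, and to 0.138 CPM in KO 3. KO 3 thus lacked the Y-linked transcripts that the other 5 libraries carried, and in KO 3 sex and genotype cannot be told apart. Markers of the kidney's own cells were present throughout: the 24 tested markers of the first and second segments of the proximal tubule summed to 27187 to 30318 CPM in WT and 27276 to 28058 CPM in KO.

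The targeted gene went with the labels. Ecm1 (ENSMUSG00000028108, chromosome 3, 95734147 to 95739569, minus strand; gene positions here are those of GENCODE M21 on GRCm38) was at 53.8, 46.3 and 27.3 CPM in WT and at 0.0689, 0.0796 and 0.139 CPM in KO. All 3 KO libraries lay far below every WT library, with a log2 fold change of -8.69 ± 0.42 (SE; edgeR quasi-likelihood test, Benjamini-Hochberg adjusted p = 9.00e-09).

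Across the transcriptome, 14774 genes were tested and 477 (3.23%) were called at an adjusted p under 0.05. Of these, 223 (1.51%) rose and 254 (1.72%) fell in KO, and 2526 genes had an unadjusted p under 0.05. The smallest p-values among the rises belonged to Eln, Ugt1a2 and Spp1, and among the falls, after Ecm1, to Cyp7b1, Asxl3 and Slco1a1. Scaling to library totals alone shifted the median of all genes by 0.11 on the log2 scale, and the split then was 380 higher and 158 lower. The spread was estimated over all 18 libraries. When the 6 libraries of 4 weeks were fitted alone, 13488 genes were tested and 2 were called by edgeR, Ecm1 and Eln, with 2112 at an unadjusted p under 0.05.

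The counts also rested on single libraries. Without WT 2, 41 genes rose and 48 fell. Without WT 3 the counts were 43 and 62, without KO 2 they were 104 and 119, and without KO 3 they were 71 and 68. Without KO 1 they grew to 622 and 579. With sex by Y-linked genes as a covariate, 114 rose and 152 fell, of which 110 and 150 were among the 477. The same sex term served all ages, and KO 3 was the only library of 4 weeks without Y-linked transcripts. The term thus drew also on the younger libraries and cannot remove a sex difference particular to 4 weeks. In all 6 fits that each left out 1 library of 4 weeks, 30 of the genes that rose and 42 of those that fell were called again.

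Most called genes differed in all 3 KO libraries. Among the 223 genes that rose, 218 had all 3 KO libraries above every WT library and the other 5 had exactly 2. Among the 254 that fell, 245 had all 3 KO libraries below every WT library and 9 had exactly 2. Over all genes tested, all 3 KO libraries were above every WT library for 1428 genes (9.67%) and below for 1667 (11.3%). Called genes were selected for a difference between these same libraries, so their separation is in large part built into the call.

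Beyond the calls, the KO libraries departed from WT unequally. KO 1 was at least 0.5 log2 CPM above the WT range for 438 genes and below it for 525, KO 2 for 1329 and 739, and KO 3 for 1116 and 1079. By that margin 130 genes were above WT in all 3 KO libraries and 110 were below. KO 2 alone accounted for 725 genes above and 337 below, KO 3 alone for 497 and 622, and KO 1 alone for 151 and 288. KO 2 and KO 3 shared 403 genes above and 256 below, KO 1 and KO 2 shared 71 and 36, and KO 1 and KO 3 shared 86 and 91. These counts describe 6 libraries and were not tested.

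**Figure D1:**
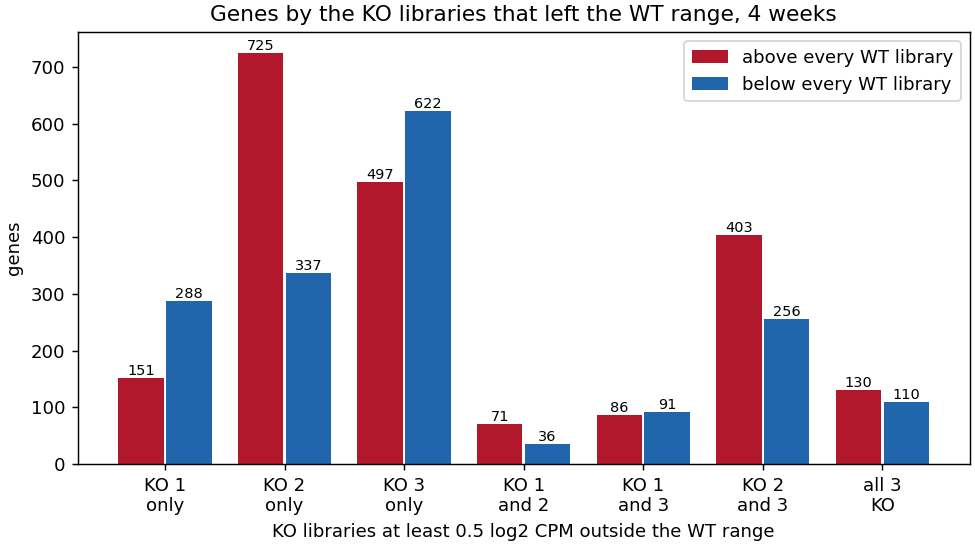
Number of genes (y axis) by the KO libraries of 4 weeks that lay at least 0.5 log2 CPM outside the range of the 3 WT libraries (x axis), above every WT library in red and below in blue. The tallest bars are KO 2 only above (725) and KO 3 only below (622), and all 3 KO libraries shared 130 genes above and 110 below.

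Described next are the 12 rises and 12 falls with the smallest p, of which Ecm1, a fall, was described above. They were chosen among called genes whose 3 KO libraries all lay outside the WT range, so that separation is part of the choice. Each was called again in every fit that left out 1 library. Among the rises, Eln encodes elastin, the core of elastic fibres (chromosome 5, 134702593 to 134747323). It was at 18.6, 16.8 and 18.4 CPM in WT and at 51.7, 68.6 and 75.5 CPM in KO, a log2 fold change of 1.87 ± 0.16 (edgeR adjusted p = 2.27e-05). Spp1, which encodes the secreted phosphoprotein osteopontin (chromosome 5, 104435118 to 104441050), was at 1339, 983 and 1013 CPM in WT and at 2389, 6834 and 7062 CPM in KO (edgeR adjusted p = 0.001113, log2 fold change 2.29 ± 0.30). KO 1 was the lowest KO library for both genes. Ptpro, a receptor phosphatase of the podocyte (chromosome 6, 137252319 to 137463233), was at 33.3, 29.4 and 29.8 CPM in WT and at 51.5, 57.0 and 64.7 CPM in KO (edgeR adjusted p = 0.002615, log2 fold change 0.90 ± 0.14). Satb1, which encodes a chromatin organiser, was at 1.93, 1.89 and 1.91 CPM in WT and at 3.51, 3.82 and 3.74 CPM in KO (edgeR adjusted p = 0.002615, log2 fold change 0.95 ± 0.14). Both groups were tight for Satb1, with means of 1.91 ± 0.0182 CPM in WT and 3.69 ± 0.158 CPM in KO (SD, n = 3).

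Further rises joined receptors, adhesion molecules and enzymes. Ednrb, an endothelin receptor, was at 38.5, 39.7 and 40.9 CPM in WT and at 61.3, 68.3 and 64.5 CPM in KO. Cdh6, a cadherin of the developing nephron, was at 15.02, 12.4 and 15.6 CPM in WT and at 22.6, 31.7 and 35.3 CPM in KO. Aldh1a2, which makes retinoic acid, was at 2.13, 2.63 and 1.82 CPM in WT and at 4.75, 12.5 and 9.70 CPM in KO. The log2 fold changes of these genes were 0.71, 1.06 and 2.01. Tm4sf1, Tspan2 and Acsf2 rose with log2 fold changes of 0.64, 1.27 and 0.95. Ugt1a2, a glucuronosyltransferase (chromosome 1, 88200601 to 88218997), was at 25.9, 6.49 and 4.996 CPM in WT and at 267, 348 and 2041 CPM in KO, with a log2 fold change of 6.13 ± 0.80. Gsta5, a glutathione transferase, was at 4.59, 4.19 and 3.00 CPM in WT and at 24.0, 9.79 and 36.4 CPM in KO. KO 3 was the highest library for both enzymes. The genes of the Ugt1a cluster share their last exons, and those of the Gsta family are near-identical, so the division of reads among them is uncertain.

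The falls included enzymes of steroid, lipid and peptide metabolism. Cyp7b1, an oxysterol hydroxylase (chromosome 3, 18071950 to 18243338), was at 79.0, 156 and 148 CPM in WT and at 9.58, 14.4 and 3.88 CPM in KO (edgeR adjusted p = 3.07e-05, log2 fold change -3.79 ± 0.34). Slco1a1, an organic anion transporter (chromosome 6, 141907282 to 141946962), was at 128, 511 and 386 CPM in WT and at 8.48, 5.89 and 0.762 CPM in KO (edgeR adjusted p = 0.0003169, log2 fold change -6.08 ± 0.62). WT 1 was the WT library nearest to KO for both genes, and no KO library reached it. Lpl, the lipase that frees fatty acids from lipoproteins (chromosome 8, 68880491 to 68907448), was at 909, 1659 and 1449 CPM in WT and at 346, 253 and 182 CPM in KO (edgeR adjusted p = 0.0003169, log2 fold change -2.36 ± 0.26). Cndp2, a cytosolic dipeptidase, was at 673, 975 and 1019.6 CPM in WT and at 339, 296 and 182 CPM in KO (edgeR adjusted p = 0.000359, log2 fold change -1.71 ± 0.20). The order of libraries recurred: in each of these 4 genes WT 1 was the lowest WT library and KO 3 the lowest KO library.

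Fat also expresses Lpl, and the part of fat in its fall was not tested. Adipoq was at 0, 3.38 and 0.454 CPM in WT and at 0, 2.63 and 0 CPM in KO, and Plin1 was at 0, 4.12 and 0.273 CPM in WT and at 0.0689, 1.67 and 0.139 CPM in KO. Both markers were highest in WT 2 and KO 2. The 10 fat markers tested, Lpl among them, summed to 5601 to 8061 CPM in WT and 4599 to 8011 CPM in KO, and Lpl was the 1 member called.

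The other falls were in genes of varied roles. Asxl3, a chromatin regulator, was at 6.25, 8.04 and 8.36 CPM in WT and at 2.27, 2.15 and 1.66 CPM in KO. Ces2b, a carboxylesterase, was at 11.3, 41.1 and 31.2 CPM in WT and at 2.69, 1.51 and 2.70 CPM in KO. Slc9a8, a sodium-proton exchanger, was at 126, 152 and 169 CPM in WT and at 75.7, 45.6 and 47.5 CPM in KO. Slc9a8 was highest in KO 1 among the KO libraries, and Ces2b was lowest in KO 2. Chst11, a chondroitin sulfotransferase, was at 58.6, 104 and 114 CPM in WT and at 30.2, 25.6 and 17.5 CPM in KO. Hsd17b11, a hydroxysteroid dehydrogenase of lipid droplets, was at 286, 474 and 469 CPM in WT and at 187, 177 and 126 CPM in KO. The log2 fold changes of the 5 genes were -1.89, -3.59, -1.40, -1.91 and -1.32. Cmtm6 and Frmpd3 had log2 fold changes of -0.96 and -2.96.

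**Figure D2:**
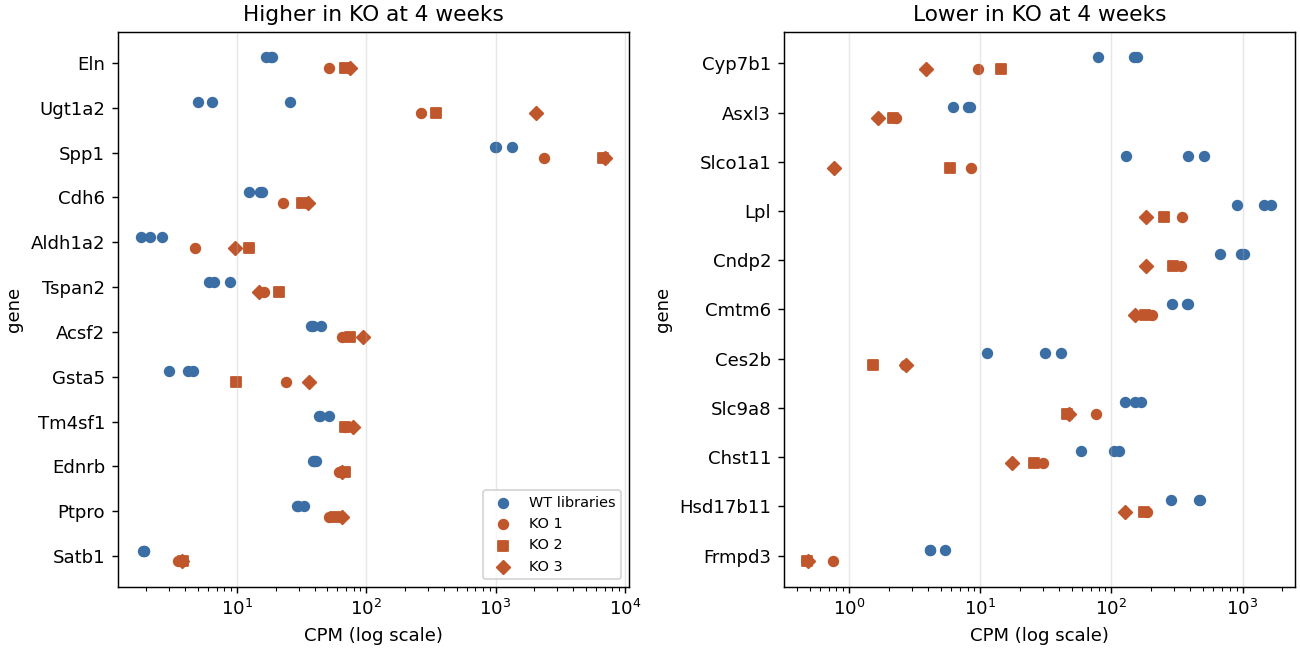
CPM on a log scale (x axis) of the 12 genes with the smallest p among those that rose (left) and the 12 among those that fell (right). Ecm1, 1 of the 12 falls, is left out of the plot. There is 1 point per library of 4 weeks, WT in blue and KO in orange with a symbol for each library. The genes were chosen so that WT and KO points do not overlap, and KO 3 lies farthest out for Ugt1a2 (2041 CPM), Slco1a1 (0.762 CPM) and Cyp7b1 (3.88 CPM).

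Several of these genes were at close levels in both genotypes at 2 weeks. The difference between KO and WT was itself compared between ages with an interaction term. It differed between 4 and 2 weeks for 26 genes (0.176% of those tested, with 1441 at an unadjusted p under 0.05), and between 4 weeks and 1 week for 9 genes (0.0609%, with 1399). All 26 of the former were also called between the genotypes at 4 weeks, a difference that is part of the interaction, so the 2 tests are not independent. Cyp7b1 was at 5.30 ± 1.13 CPM in WT and 5.65 ± 0.0972 CPM in KO at 2 weeks (SD, n = 3), and at 127 ± 42.1 and 9.29 ± 5.27 CPM at 4 weeks. Lpl was at 146 ± 31.0 CPM in WT and 133 ± 19.7 CPM in KO at 2 weeks, and at 1339 ± 387 and 260.4 ± 82.4 CPM at 4 weeks. For both genes the KO mean at 4 weeks lay nearer to the 2-week means than to WT of the same age. Slco1a1, at or near 0 in all 6 libraries of 2 weeks, was called at 4 weeks, but the interaction term was not called for it (edgeR adjusted p = 0.9995). Eln ran the other way, at 121 ± 16.7 CPM in WT and 145 ± 10.5 CPM in KO at 2 weeks and at 17.9 ± 1.01 and 65.3 ± 12.3 CPM at 4 weeks. Spp1 followed neither course: it was at 1136 ± 128 CPM in WT and 1255 ± 252 CPM in KO at 2 weeks, and its KO mean of 5428 ± 2634 CPM at 4 weeks lay above the WT means of both ages. At 2 weeks all 3 KO libraries and 2 of 3 WT libraries carried Y-linked transcripts. At 1 week Y-linked genes summed to 0, 147 and 0.051 CPM in WT and to 0.132, 0 and 0 CPM in KO. Sex thus also differed between the genotypes in the comparison with 1 week.

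**Figure D3:**
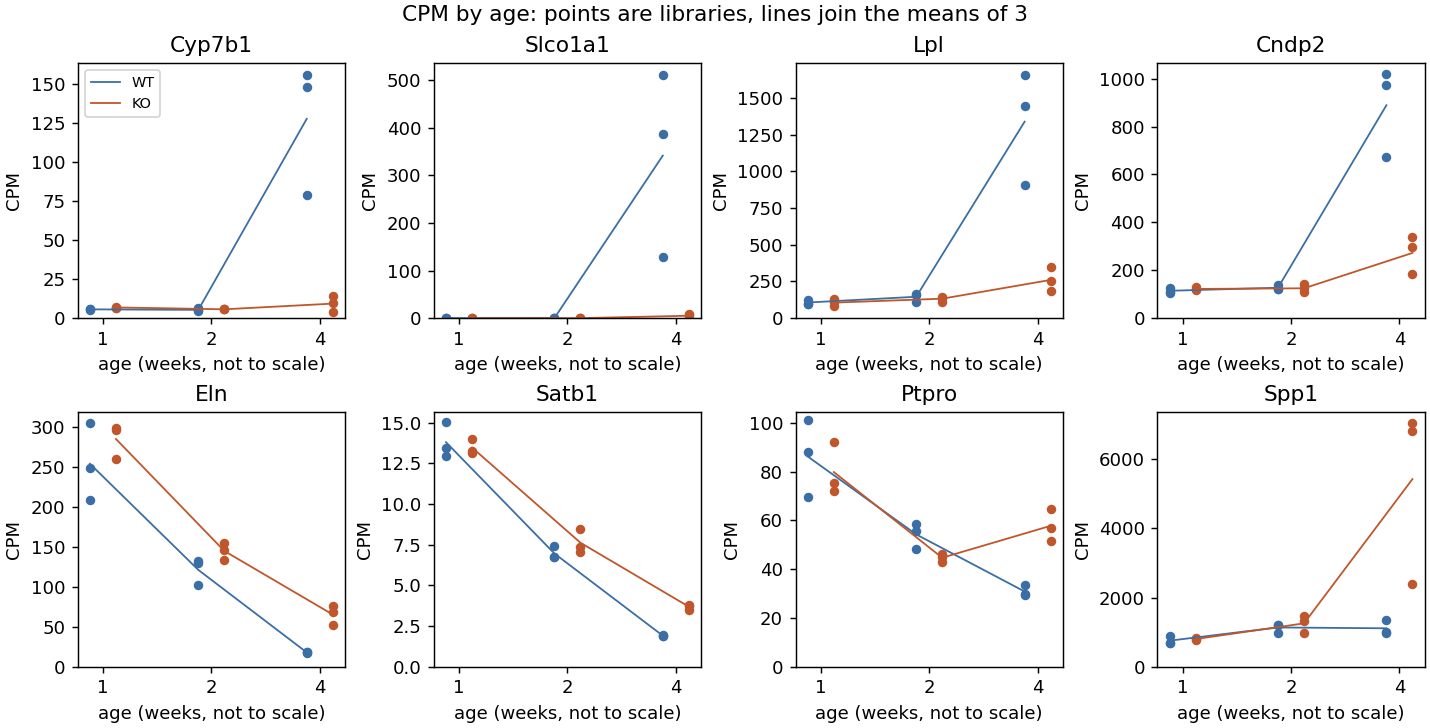
CPM (y axis, from 0) of 8 genes at 1, 2 and 4 weeks (x axis, not to scale), with a point for each library and lines joining the means of 3, WT in blue and KO in orange. Cyp7b1, Lpl and Cndp2, for which the interaction of genotype and age was called, were higher at 4 than at 2 weeks in WT and less so in KO; for Slco1a1 that interaction was not called. In the same plot Eln was lower at 4 weeks in WT (17.9 ± 1.01 CPM) than in KO (65.3 ± 12.3 CPM).

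Pathways were described by library through 48 gene lists. Where calls in a list are counted, the shares over all genes were 1.51% that rose and 1.72% that fell. The mean log2 CPM of a list's tested members was taken in each library, and a KO library was said to lie outside where its mean passed the range of the 3 WT means. By this rule 6 lists were above WT in all 3 KO libraries, 6 were below in all 3, and 10 were above in KO 2 and KO 3 but not in KO 1. The 6 above in all 3 were the lists of podocytes, smooth muscle and renin cells, fibroblasts, the collecting duct, glutathione, and the renin-angiotensin and kallikrein systems. The 6 below in all 3 were the third proximal segment, amino acid and one-carbon metabolism, cytochrome P450 enzymes, organic ion transporters, male-biased genes and heat shock. The amino acid list passed the WT range by -0.01, -0.01 and -0.11 log2 CPM in KO 1, KO 2 and KO 3, and its direction changed with the scaling. With library totals only KO 2 was outside, above WT. With log2(FPKM + 1) only KO 1 was outside, also above WT. The 10 above in KO 2 and KO 3 were mesangial cells and pericytes, endothelium, fibrillar and elastic matrix, female-biased genes, growth hormone, immediate-early genes, tubular injury, the TGF-beta and YAP response, matrix proteases and the circadian clock. In KO 3 the growth hormone list passed the WT range by 0.00 log2 CPM. With the median over members in place of the mean, endothelium and growth hormone had only KO 1 outside, below WT. Some WT ranges were narrow, and where a mean had to pass the range by at least 0.25 log2, 14 of the 48 lists kept their pattern. With that margin the podocyte list was above in all 3 KO libraries, male-biased genes and the third segment of the proximal tubule were below in all 3, 6 lists were above in KO 2 and KO 3, and 21 lists had no KO library outside.

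**Figure D4:**
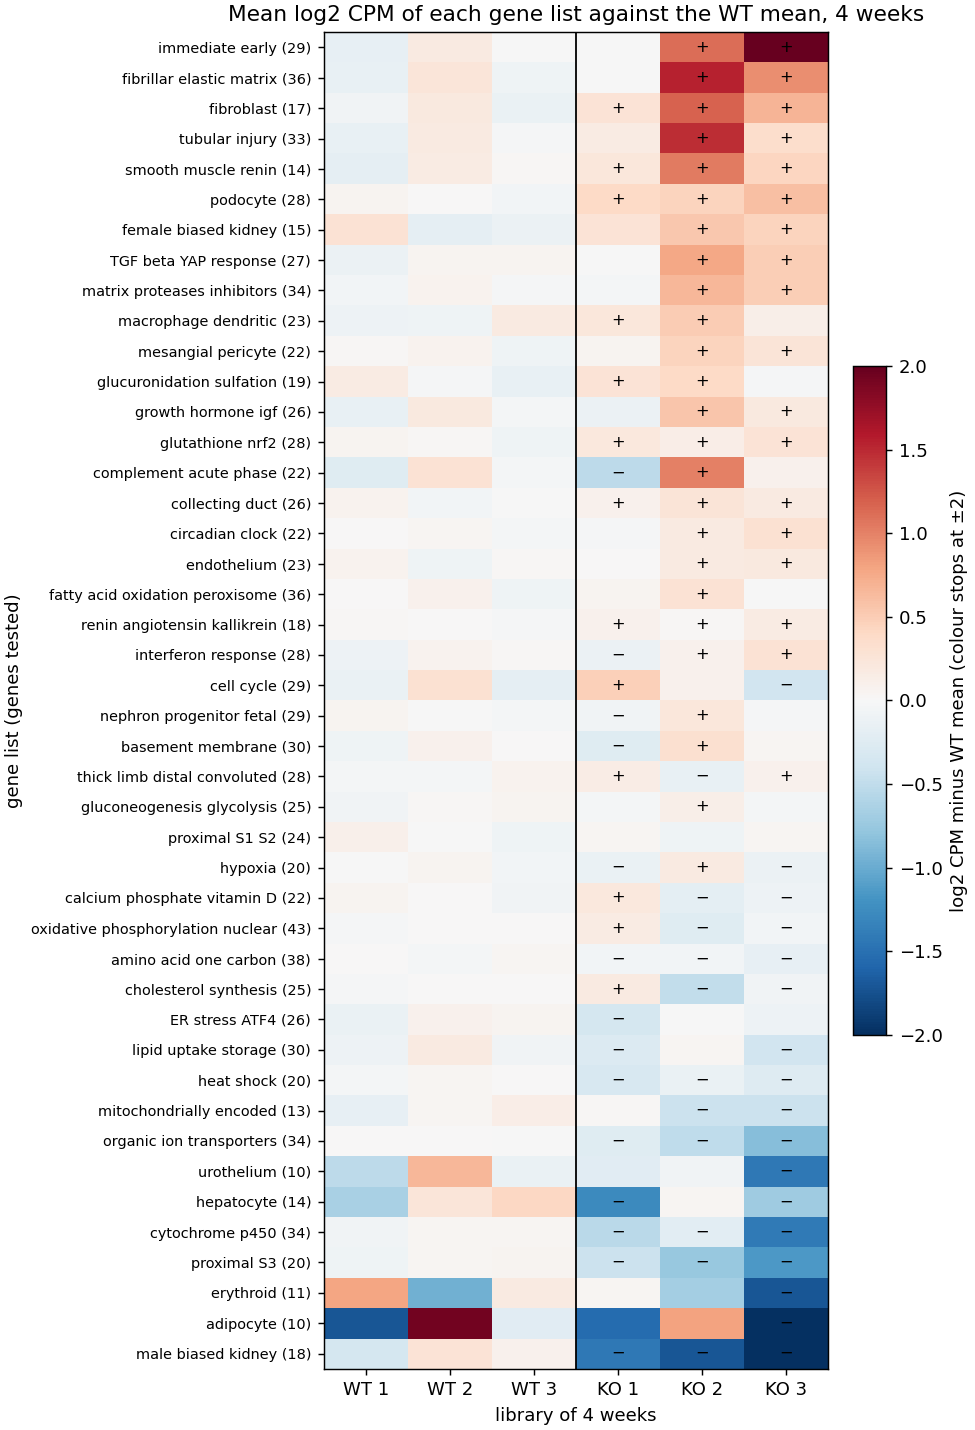
Mean log2 CPM of 44 of the gene lists (rows, with the number of genes tested) in the 6 libraries of 4 weeks (columns), as the difference from the mean of the 3 WT libraries (colour, which stops at 2 in either direction), with plus and minus signs for KO libraries above or below all 3 WT libraries. Male-biased genes were low in all 3 KO libraries (-1.43, -1.70 and -3.46), and fibrillar and elastic matrix was high in KO 2 (1.54) and KO 3 (0.93) and not in KO 1 (-0.01).

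Genes with higher expression in the male than in the female mouse kidney were low in all 3 KO libraries. The 18 tested members differed from the WT mean by -1.43, -1.70 and -3.46 log2 CPM on average in KO 1, KO 2 and KO 3. All 18 had a negative log2 fold change, with a median of -1.43, where the median of all genes was 0.00 and 50.3% were positive. Of them 11 fell and none rose, against 1.72% of all genes that fell. KO 1 was below every WT library for 16 members, KO 2 for 16 and KO 3 for 17, where the shares of all genes were 28.7%, 33.4% and 34.2%. KO 1 and KO 2 carried Y-linked transcripts as WT did. Without KO 3 the median was -1.20 and 7 members fell. The falls numbered 10, 4, 4, 13, 7 and 7 with WT 1, WT 2, WT 3, KO 1, KO 2 and KO 3 left out in turn.

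Members of the male-biased list differed in how far KO 3 stood apart. Cyp4a12a, an androgen-induced hydroxylase of arachidonic acid, was at 9.84, 56.1 and 36.8 CPM in WT and at 2.76, 3.26 and 1.46 CPM in KO (edgeR adjusted p = 0.002615, log2 fold change -3.78 ± 0.57). Its 3 KO libraries were close together, and its reads are uncertain against its near-identical neighbour Cyp4a12b, which also fell (-2.05). Odc1, the first enzyme of polyamine synthesis, was at 571, 948 and 759.6 CPM in WT and at 399, 259 and 237 CPM in KO (edgeR adjusted p = 0.002615, log2 fold change -1.35 ± 0.20). Kap, the kidney androgen-regulated protein, was at 15780, 18602 and 18601 CPM in WT and at 9526, 5842 and 6088 CPM in KO (edgeR adjusted p = 0.01135, log2 fold change -1.30 ± 0.25). In both genes KO 1 was the KO library nearest to WT. Acsm3, a ligase of medium-chain fatty acids, split the KO libraries: it was at 877, 1739 and 1537 CPM in WT, at 260.1 and 176 CPM in KO 1 and KO 2, and at 5.20 CPM in KO 3. Cyp2d9, which is not on the list, was low in KO 3 alone by a wide margin, at 114, 156 and 141 CPM in WT, 113 and 148 CPM in KO 1 and KO 2, and 5.68 CPM in KO 3.

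Of 15 female-biased genes tested, edgeR called 6 higher and 0 lower, with a median of 0.37, whereas DESeq2 called 6 higher and 2 lower. The list mean differed from WT by 0.26, 0.54 and 0.45 log2 CPM in KO 1, KO 2 and KO 3, above the WT range in KO 2 and KO 3. Prlr, the prolactin receptor, was at 105, 10.5 and 21.4 CPM in WT and at 233, 285 and 453 CPM in KO (edgeR adjusted p = 0.01295, log2 fold change 2.82 ± 0.56). WT 1 was nearest to KO, as among the male-biased genes named above, and without it the median of the list was 0.87. Abcc3, an exporter of organic anions, was at 4.06, 6.82 and 5.63 CPM in WT and at 8.34, 13.8 and 124 CPM in KO, and most of its KO mean came from KO 3. Cyp4a14, a fatty acid hydroxylase, was at 605, 253 and 194 CPM in WT and at 1149.5, 1649 and 1458 CPM in KO, with all 3 KO libraries above WT. The rises numbered 6, 2, 1, 7, 5 and 1 and the falls 0, 0, 0, 1, 1 and 1 with WT 1, WT 2, WT 3, KO 1, KO 2 and KO 3 left out in turn. With sex as a covariate 3 rose and 1 fell.

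The third segment of the proximal tubule showed the same order of KO libraries. Its 20 tested markers differed from the WT mean by -0.42, -0.76 and -1.14 log2 CPM in KO 1, KO 2 and KO 3. Of them 6 fell, against 1.72% of all genes, and none rose (median -0.31). Slc22a7, a transporter of organic anions, was at 203, 322 and 304 CPM in WT and at 78.8, 33.6 and 9.63 CPM in KO (edgeR adjusted p = 0.01967, log2 fold change -2.76 ± 0.59). Slc22a19, of the same family, was at 222, 245 and 269 CPM in WT and at 152, 95.7 and 62.8 CPM in KO (edgeR adjusted p = 0.009798, log2 fold change -1.25 ± 0.23). Slc7a13, a transporter of acidic amino acids, was at 573, 762 and 697 CPM in WT and at 407, 157 and 58.5 CPM in KO (log2 fold change -1.71). KO 3 was the lowest library for all 3 genes. The list shares Kap and Slc7a13 with the male-biased genes, and its falls numbered 5, 1, 1, 9, 3 and 3 with WT 1, WT 2, WT 3, KO 1, KO 2 and KO 3 left out in turn. In bulk tissue, fewer cells of a type and less RNA per cell cannot be told apart. Of the 24 markers of the first and second segments none was called by edgeR or DESeq2 (5 had an unadjusted p under 0.05 by edgeR), and their median was -0.03.

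Carriers of organic ions and cytochrome P450 enzymes, which handle drugs and endogenous acids and steroids, were below WT on average in all 3 KO libraries. Among 34 organic ion transporters, 6 fell and 3 rose, against 1.72% and 1.51% of all genes. The list mean differed by -0.25, -0.51 and -0.85 log2 CPM in KO 1, KO 2 and KO 3. Slc22a12, a urate transporter, was at 1468, 1854 and 1899 CPM in WT and at 1231, 835 and 723 CPM in KO (edgeR adjusted p = 0.02535, log2 fold change -0.90 ± 0.20). Slco4c1, a basolateral transporter of organic anions, went the other way, at 31.4, 11.3 and 13.3 CPM in WT and at 40.6, 45.2 and 41.8 CPM in KO (edgeR adjusted p = 0.04184, log2 fold change 1.18 ± 0.30). Among 34 P450 genes, 4 fell and 1 rose, with differences of -0.54, -0.22 and -1.42. Cyp4b1 was at 1743, 2106 and 2004 CPM in WT, 552 and 676 CPM in KO 1 and KO 2, and 63.4 CPM in KO 3. Without KO 3 the P450 median moved from -0.31 to -0.09, and 5 members fell. Among the carriers, falls numbered 5, 2, 2, 12, 2 and 4 and rises 2, 0, 0, 6, 2 and 0 with WT 1, WT 2, WT 3, KO 1, KO 2 and KO 3 left out in turn. The falls of P450 enzymes numbered 3, 2, 2, 7, 4 and 5 in the same fits.

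A few conjugating enzymes rose. In the list of glucuronidation and sulfation 4 of 19 rose, all in the Ugt1a cluster, and 1 fell, against 1.51% and 1.72% of all genes. Ugt1a1, which conjugates bilirubin, was at 5.05, 4.46 and 2.82 CPM in WT and at 24.1, 20.0 and 36.2 CPM in KO (edgeR adjusted p = 0.002963, log2 fold change 2.69 ± 0.41). In the glutathione list 3 of 28 rose and 3 fell (median 0.01). Gsta2, a transferase, was at 256, 157 and 167 CPM in WT and at 575, 404 and 672 CPM in KO (log2 fold change 1.51 ± 0.25), whereas Gclc and Gss, which build glutathione, fell by 0.85 and 0.60 on the log2 scale. Kynu, which cleaves kynurenine, was at 14.6, 2.90 and 3.18 CPM in WT and at 34.7, 44.6 and 56.9 CPM in KO (edgeR adjusted p = 0.004732, log2 fold change 2.69 ± 0.44). With WT 1, WT 2, WT 3, KO 1, KO 2 and KO 3 left out in turn, the rises in glucuronidation and sulfation numbered 3, 2, 2, 4, 3 and 2, and those in the glutathione list 2, 1, 1, 4, 2 and 1, with falls in the latter of 2, 1, 1, 4, 1 and 1.

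Genes of fatty acid oxidation were called in both directions. Among 36 genes of fatty acid oxidation and the peroxisome, 2 rose and 3 fell (median 0.07), where 1.51% of all genes rose and 1.72% fell. The list mean differed from WT by 0.05, 0.29 and -0.00 log2 CPM in KO 1, KO 2 and KO 3, so it was not lower as a whole. The 3 that fell are given next, and the 2 that rose are not. Cd36, a fatty acid importer, was at 354, 828 and 744 CPM in WT and at 203, 165 and 49.3 CPM in KO (edgeR adjusted p = 0.0217, log2 fold change -2.21 ± 0.48). Acadm and Acads, dehydrogenases of mitochondrial oxidation, fell by 0.79 and 0.52 on the log2 scale. The groups did not overlap in Cd36. In the list of lipid uptake and storage, which also holds Cd36, 0 of 30 rose and 2 fell by edgeR, Lpl and Cd36, and DESeq2 called 2 higher and 3 lower. Leaving out WT 1, WT 2, WT 3, KO 1, KO 2 and KO 3 in turn gave 3, 0, 0, 3, 1 and 0 falls and 1, 0, 0, 4, 0 and 0 rises in the list of fatty acid oxidation.

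Podocyte genes were above WT in all 3 KO libraries, and by similar amounts. Podocytes are the epithelial cells whose foot processes and slit diaphragms complete the glomerular filter. The 28 tested markers were above the WT mean by 0.39, 0.44 and 0.59 log2 CPM in KO 1, KO 2 and KO 3, and summed to 2724 to 2852 CPM in WT and 3448 to 3598 CPM in KO. Of the 28, 26 had a positive log2 fold change (median 0.47), 6 rose against 1.51% of all genes, none fell, and 13 had all 3 KO libraries above every WT library against 9.67% of all genes. Nphs1, the gene of the slit diaphragm protein nephrin, was at 48.2, 38.4 and 38.1 CPM in WT and at 67.4, 72.5 and 67.9 CPM in KO (edgeR adjusted p = 0.02855, log2 fold change 0.74 ± 0.17). Sema3g, a semaphorin secreted by podocytes, was at 107, 67.2 and 78.3 CPM in WT and at 178, 149 and 184 CPM in KO (edgeR adjusted p = 0.00611, log2 fold change 1.02 ± 0.17). The groups did not overlap in either gene. Podxl and Wt1, named after their values were seen, were not called, with log2 fold changes of 0.53 and 0.84 (edgeR adjusted p = 0.07521 and 0.1228). Podocyte genes that rose numbered 4, 2, 2, 9, 3 and 3 with WT 1, WT 2, WT 3, KO 1, KO 2 and KO 3 left out in turn.

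Markers of mesangial cells and pericytes moved less evenly. Of 22 tested, 3 rose and 1 fell (median 0.32). The list mean differed from that of WT by 0.05, 0.45 and 0.26 log2 CPM in KO 1, KO 2 and KO 3, and in KO 1 it was inside the WT range. Rgs5, a regulator of G protein signalling in pericytes, was at 71.2, 76.9 and 80.8 CPM in WT and at 121, 189 and 128 CPM in KO (edgeR adjusted p = 0.01412, log2 fold change 0.94 ± 0.19). Mcam and Serpine2 rose with log2 fold changes of 0.68 and 0.76. Kcnj8, a potassium channel subunit, was at 11.2, 11.6 and 8.81 CPM in WT and at 5.17, 6.21 and 3.67 CPM in KO and fell (log2 fold change -1.08). Pdgfrb, the receptor that mesangial cells need for their development, was named after its values were seen. It was at 31.8, 36.1 and 31.8 CPM in WT and at 23.6, 53.3 and 50.4 CPM in KO and was not called (edgeR adjusted p = 0.4863). Of 23 endothelial markers 1 rose, Plat (0.56), where 1.51% of all genes rose, and the median was 0.09. Endothelial rises numbered 2, 0, 0, 3, 0 and 0 with WT 1, WT 2, WT 3, KO 1, KO 2 and KO 3 left out in turn. In the same fits mesangial and pericyte markers that rose numbered 2, 0, 0, 6, 0 and 1, and none fell.

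Genes of the fibrillar and elastic matrix separated KO 2 and KO 3 from KO 1. The list mean differed from WT by -0.01, 1.54 and 0.93 log2 CPM in KO 1, KO 2 and KO 3. KO 2 was above every WT library for 35 of 36 genes and KO 3 for 33, where 32.9% and 33.0% of all genes were, and KO 1 for 13, against 27.4% of all genes. KO 1 was also below every WT library for 15 of the 36, against 28.7% of all genes. With the median over members in place of the mean, KO 1 was below WT. Over the groups, 10 of 36 rose, against 1.51% of all genes, and none fell (median 0.99). Col1a1, a chain of type I collagen (chromosome 11, 94936224 to 94953042), was at 34.6, 48.5 and 37.7 CPM in WT, 50.6 CPM in KO 1, and 156 and 94.3 CPM in KO 2 and KO 3 (edgeR adjusted p = 0.04227, log2 fold change 1.31 ± 0.33). Fn1, fibronectin, was named after its values were seen. It was at 32.9, 56.3 and 43.9 CPM in WT, 35.5 CPM in KO 1, and 199 and 112 CPM in KO 2 and KO 3, and was not called (edgeR adjusted p = 0.06741). KO 1 thus lay within or just above the WT range in both genes.

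In some genes of this list KO 1 was high too. Beside Eln, Mfap4, a protein of the microfibrils, was at 1.86, 2.30 and 2.18 CPM in WT and at 4.203, 12.9 and 7.28 CPM in KO (edgeR adjusted p = 0.007502, log2 fold change 1.93 ± 0.34). Mgp, an inhibitor of calcification in elastic tissue, was at 14.1, 20.7 and 13.4 CPM in WT and at 28.7, 74.6 and 46.3 CPM in KO (log2 fold change 1.63). Lum, which encodes the collagen-binding lumican, was at 2.46, 3.51 and 1.54 CPM in WT and at 4.75, 21.6 and 5.06 CPM in KO (log2 fold change 2.02). In all 3 genes each KO library lay above every WT library and KO 2 was the highest. Without WT 1, 5 matrix genes rose. Without WT 2, WT 3, KO 2 or KO 3 they numbered 3, 2, 4 and 6, and without KO 1 they numbered 26.

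Fibroblast and smooth muscle markers were above WT in all 3 KO libraries, least in KO 1, whereas the mean of matrix proteases and inhibitors was above in KO 2 and KO 3 only. The fibroblast list differed from WT by 0.28, 1.17 and 0.68 log2 CPM in KO 1, KO 2 and KO 3, with 3 of 17 called higher. Its members summed to 588 to 655 CPM in WT and 645 to 814 CPM in KO, and of the tested members Twist2 was at 0, in WT 3. The list of smooth muscle and renin cells differed by 0.22, 1.04 and 0.43, with 2 of 14 called higher and sums of 408 to 499.9 CPM in WT and 537 to 888 CPM in KO. The part of these cells in the matrix values was not tested. Tagln, an actin-binding protein of smooth muscle, was at 23.5, 33.8 and 28.5 CPM in WT and at 55.9, 109 and 55.6 CPM in KO (edgeR adjusted p = 0.01961, log2 fold change 1.36 ± 0.29). Of 34 matrix proteases and inhibitors, 7 rose and 1 fell, where 1.51% of all genes rose and 1.72% fell. Mmp2, a gelatinase, was at 5.58, 4.32 and 5.18 CPM in WT and at 6.27, 19.3 and 10.3 CPM in KO (log2 fold change 1.24). Timp3, a matrix-bound inhibitor of such proteases, was at 2243, 2411 and 2751 CPM in WT and at 1662, 1534 and 1253 CPM in KO and fell (edgeR adjusted p = 0.009209, log2 fold change -0.74 ± 0.13). Timp3 was below every WT library in all 3 KO libraries, KO 1 included. Among 27 genes that respond to TGF-beta and YAP, 2 rose, Axl and Ltbp2. Axl, a receptor kinase, was at 24.0, 29.0 and 26.4 CPM in WT and at 39.6, 72.6 and 56.4 CPM in KO (log2 fold change 1.09). Of 30 basement membrane genes edgeR called 0 higher and 1 lower, Fras1, and DESeq2 called 1 higher and 1 lower. Their median was 0.11, and without KO 1 it was 0.23 and 7 rose. With WT 1, WT 2, WT 3, KO 1, KO 2 and KO 3 left out in turn, fibroblast markers that rose numbered 2, 1, 1, 6, 1 and 2, smooth muscle markers 0, 0, 0, 3, 0 and 1, proteases and inhibitors 3, 0, 1, 12, 1 and 1, and genes of the TGF-beta and YAP list 1, 1, 1, 6, 1 and 2.

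Immediate-early genes, which encode regulators induced within minutes by many stimuli, were farthest above WT in KO 3. The list mean differed from WT by -0.01, 1.12 and 2.16 log2 CPM in KO 1, KO 2 and KO 3. KO 3 was above every WT library for all 29 genes tested, KO 2 for 25 and KO 1 for 8, where 33.0%, 32.9% and 27.4% of all genes were. Fos (chromosome 12, 85473890 to 85477273) was at 0.931, 0.946 and 0.636 CPM in WT, 0.689 CPM in KO 1, 4.22 CPM in KO 2 and 40.3 CPM in KO 3 (edgeR adjusted p = 0.1457). Egr1, named after its values were seen, was at 7.18, 13.2 and 5.54 CPM in WT and at 4.41, 18.3 and 128 CPM in KO (edgeR adjusted p = 0.1794). By edgeR Klf4, Klf6 and Ier3 were called, all higher, and DESeq2 called 11 of the 29. Klf4 was at 10.97, 10.3 and 8.45 CPM in WT and at 13.2, 19.7 and 35.5 CPM in KO (edgeR adjusted p = 0.03954, log2 fold change 1.20 ± 0.30). Without KO 3, edgeR called 0 of the 29, whose median moved from 1.17 to 0.61. Libraries of 2 weeks differed widely in Fos within each genotype, at 1.18, 4.98 and 23.4 CPM in WT and at 1.31, 1.94 and 16.3 CPM in KO. The immediate-early genes called numbered 1, 0, 0, 16 and 1 without WT 1, WT 2, WT 3, KO 1 and KO 2 in turn.

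The promoters of 3 immediate-early genes high in KO 2 and KO 3 are shown because members of this list were high in the same libraries and some carry known control elements. Each is the run of 250 bases before the gene's start, 5′ to 3′, from RefSeq on GRCm38.p6. The capitals mark the cAMP response element, searched as TGACGTCA, which reads the same on both strands, or the core of the serum response element, the CArG box, searched on both strands. Dusp1, a phosphatase of MAP kinases, was at 48.9, 65.5 and 55.3 CPM in WT and at 32.3, 152 and 192 CPM in KO. Btg2, an inhibitor of proliferation, was at 13.0, 24.8 and 17.0 CPM in WT and at 17.2, 49.0 and 89.5 CPM in KO. Zfp36, which destabilises cytokine mRNAs, was at 44.1, 63.6 and 52.8 CPM in WT and at 44.4, 89.4 and 223 CPM in KO. In each gene KO 3 was the highest library and KO 2 the next, and edgeR called none of the 3 (adjusted p = 0.152, 0.1224 and 0.113).
Dusp1, chr17:26508473-26508722, minus strand, cAMP response element: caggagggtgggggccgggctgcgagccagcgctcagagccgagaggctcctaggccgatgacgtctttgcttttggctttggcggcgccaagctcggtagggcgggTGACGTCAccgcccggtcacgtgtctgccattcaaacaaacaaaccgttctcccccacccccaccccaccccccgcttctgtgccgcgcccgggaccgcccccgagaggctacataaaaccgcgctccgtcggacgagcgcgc
Btg2, chr1:134079156-134079405, minus strand, cAMP response element: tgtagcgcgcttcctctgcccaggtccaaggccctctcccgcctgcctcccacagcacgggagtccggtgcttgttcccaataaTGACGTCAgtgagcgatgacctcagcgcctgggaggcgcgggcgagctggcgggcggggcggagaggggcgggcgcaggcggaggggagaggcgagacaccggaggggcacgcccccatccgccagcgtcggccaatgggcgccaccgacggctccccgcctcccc
Zfp36, chr7:28379229-28379478, minus strand, CArG box: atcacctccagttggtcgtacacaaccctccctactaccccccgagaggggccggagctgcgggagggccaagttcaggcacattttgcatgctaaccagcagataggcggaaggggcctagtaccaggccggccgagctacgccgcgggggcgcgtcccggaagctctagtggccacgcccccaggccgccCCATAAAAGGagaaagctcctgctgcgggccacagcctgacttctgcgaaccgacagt
The cAMP response element stood in 3 (Btg2, Dusp1 and Maff) of the 26 immediate-early genes matched in the promoter table, of 29 tested, and in 1.77% of all 27025 genes there. The CArG box stood in 2 of the 26 (Egr2 and Zfp36) and in 1.62% of all genes.

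Genes of tubular injury stood out in KO 2. The list mean differed from WT by 0.17, 1.47 and 0.35 log2 CPM in KO 1, KO 2 and KO 3, and KO 2 was above every WT library for 30 of 33 genes, KO 3 for 16 and KO 1 for 15, where 32.9%, 33.0% and 27.4% of all genes were. Havcr1, the kidney injury molecule (chromosome 11, 46735080 to 46779578), was at 1.13, 0.946 and 0.818 CPM in WT, 1.31 and 0.277 CPM in KO 1 and KO 3, and 50.2 CPM in KO 2 (edgeR adjusted p = 0.06893). Lcn2, a protein secreted by injured tubules, was at 5.58, 3.78 and 4.45 CPM in WT, 4.96 and 3.53 CPM in KO 1 and KO 3, and 97.0 CPM in KO 2. Both were named after their values were seen, and neither was called. The 5 members that rose, against 1.51% of all genes, were Spp1, Vcam1, Vim, Anxa3 and Prom1, and none fell (median 0.49). Vcam1, an adhesion molecule, was at 6.85, 8.24 and 9.72 CPM in WT and at 12.3, 42.2 and 19.1 CPM in KO (edgeR adjusted p = 0.01961, log2 fold change 1.57 ± 0.33). Vim, the filament protein vimentin, was at 38.4, 38.0 and 37.8 CPM in WT and at 63.7, 150.4 and 65.7 CPM in KO (log2 fold change 1.29 ± 0.26). Prom1, a membrane antigen of progenitor cells, was at 156, 137 and 149.9 CPM in WT and at 209.8, 213 and 202 CPM in KO (log2 fold change 0.50 ± 0.10). These 3 were above WT in all 3 KO libraries, whereas Lcn2 was so in KO 2 alone. Without KO 2 the median of the list was 0.15 and 4 members rose. With WT 2, WT 3 or KO 1 left out, the members that rose numbered 2, 1 and 11.

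**Figure D5:**
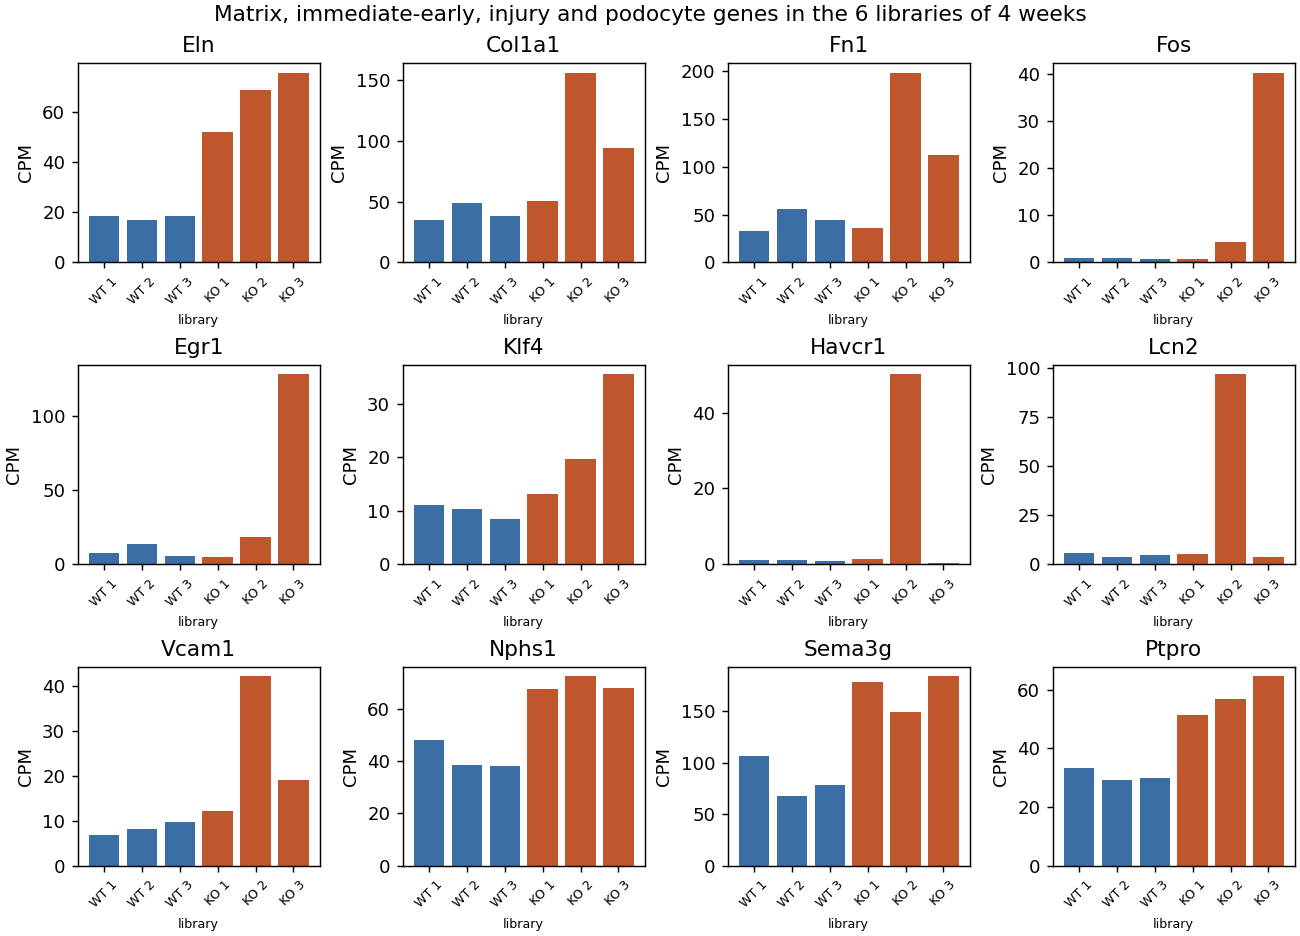
CPM (y axis, from 0) of 12 genes in the 6 libraries of 4 weeks (bars, WT in blue and KO in orange, 1 bar per library). Eln and the podocyte genes Nphs1, Sema3g and Ptpro were above WT in all 3 KO libraries, Fn1 in KO 2 and KO 3, Fos most in KO 3 (40.3 CPM), and Lcn2 in KO 2 (97.0 CPM).

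KO 2 also stood apart in genes of complement and the acute phase. The list of complement and acute-phase genes differed from WT by -0.52, 1.01 and 0.09 log2 CPM in KO 1, KO 2 and KO 3, and none of its 22 genes was called by edgeR (6 at an unadjusted p under 0.05, and 2 called by DESeq2). Without KO 1, edgeR called 7, all higher, and without any other single library it called 0. C3, the central complement component, was at 24.9, 31.8 and 29.1 CPM in WT, 31.5 CPM in KO 1, 370.0 CPM in KO 2 and 104 CPM in KO 3 (edgeR adjusted p = 0.107). Igfbp1, which binds insulin-like growth factors and is no member of that list, was at 16.2, 30.4 and 24.2 CPM in WT, 16.9 and 29.4 CPM in KO 1 and KO 3, and 396 CPM in KO 2. Edn1, Ankrd1, Serpina3n and Krt20 likewise lay above WT in KO 2 and inside the WT range in KO 1 and KO 3. Markers of hepatocytes, which make most plasma proteins, differed from WT by -1.27, 0.03 and -0.71 log2 CPM, and summed to 452 to 817 CPM in WT and to 483, 1122 and 534 CPM in KO. Their part in these values was not tested. Markers of macrophages and dendritic cells differed by 0.23, 0.52 and 0.12, with 1 of 23 called higher and 1 lower.

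KO 3, the library without Y-linked transcripts, stood apart in single genes and in the mean log2 CPM of erythroid and urothelial markers. Slc7a12, an amino acid transporter of the female-biased list, was at 20.6, 1.55 and 3.00 CPM in WT, 13.9 and 15.9 CPM in KO 1 and KO 2, and 77.7 CPM in KO 3. Rdh19, of the retinol dehydrogenase family, was at 0.332, 0.270 and 0 CPM in WT, 0.207 and 0 CPM in KO 1 and KO 2, and 43.8 CPM in KO 3. The interferon response list differed from WT by -0.11, 0.09 and 0.30 log2 CPM in KO 1, KO 2 and KO 3. In KO 3, 22 of 28 genes were above every WT library, against 33.0% of all genes, and none of the 28 was called by edgeR (3 at an unadjusted p under 0.05, and 1 called by DESeq2). Erythroid and urothelial markers differed from WT by -1.71 and -1.43 log2 CPM in KO 3, and both lists lay inside the WT range in KO 1 and KO 2. The summed CPM of erythroid markers in KO 3 was 702, inside the WT range of 647 to 1694. Without WT 2 the erythroid mean was below WT in all 3 KO libraries. Lymphocyte and neutrophil markers went the other way, and not in KO 3 alone. They differed from the WT mean by 0.35, 0.09 and 0.37 log2 CPM in KO 1, KO 2 and KO 3, outside the WT range in KO 1 and KO 3.

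KO 1, the library nearest to WT by number of genes, was above WT in the means of oxidative phosphorylation and cell cycle genes, where KO 3 was below. The place of KO 3 depended on the scaling. For oxidative phosphorylation KO 3 passed the WT range by -0.03 log2 CPM, and it was above WT with library totals and with log2(FPKM + 1). For cell cycle genes KO 3 was no longer outside with log2(FPKM + 1). The 43 nuclear genes of oxidative phosphorylation differed from WT by 0.16, -0.24 and -0.05 log2 CPM in KO 1, KO 2 and KO 3. Above every WT library were 36 of them in KO 1, and 42 were below in KO 2, where 27.4% and 33.4% of all genes were. The WT means were close together (7.89 to 7.92), and no member was called by edgeR or DESeq2 (2 had an unadjusted p under 0.05 by edgeR). The 13 genes encoded in mitochondria differed by 0.02, -0.43 and -0.43, none called by edgeR or DESeq2 or at an unadjusted p under 0.05 (0 of 13), with 13 of 13 log2 fold changes negative. Cell cycle genes differed by 0.47, 0.08 and -0.38, with 20 of 29 above every WT library in KO 1 and 18 below in KO 3, against 27.4% and 34.2% of all genes, and cholesterol synthesis genes by 0.18, -0.49 and -0.07. Major urinary protein genes were lowest in KO 1, where Mup7 was at 2.21 CPM against 16.6, 45.3 and 46.2 CPM in WT and 24.3 and 19.1 CPM in KO 2 and KO 3. These genes are near-identical, so the division of their reads is uncertain.

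Other lists held few called genes. Heat shock genes were below WT in all 3 KO libraries, with differences of -0.32, -0.12 and -0.26 log2 CPM and 1 of 20 called lower (median -0.27). With library totals KO 2 was no longer below WT. Heat shock genes that fell numbered 1, 0, 0, 3, 1 and 0 with WT 1, WT 2, WT 3, KO 1, KO 2 and KO 3 left out in turn, and without KO 1, 1 rose. Hsp90ab1, a cytosolic chaperone, was at 1542, 1527 and 1639 CPM in WT and at 1188, 1200.2 and 1037 CPM in KO (edgeR adjusted p = 0.0169, log2 fold change -0.46 ± 0.10). Genes of the renin-angiotensin and kallikrein systems differed by 0.09, 0.03 and 0.16, with 1 of 18 called higher, a call lost without WT 1, WT 2, WT 3 or KO 3. In the list of growth hormone and insulin-like growth factors 2 of 26 rose, Pappa (0.83) and Pappa2. Pappa2, a protease that releases these growth factors from their binding proteins, was at 0.731, 0.811 and 1.73 CPM in WT and at 7.79, 21.3 and 8.73 CPM in KO (edgeR adjusted p = 0.00893, log2 fold change 3.58 ± 0.65). In this list the rises numbered 1, 0, 1, 4, 1 and 1 with WT 1, WT 2, WT 3, KO 1, KO 2 and KO 3 left out in turn.

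Several lists had no call by edgeR. The mean of 26 collecting duct markers was above WT in all 3 KO libraries, by 0.09, 0.26 and 0.19 log2 CPM in KO 1, KO 2 and KO 3, and 10 markers had all 3 KO libraries above every WT library, against 9.67% of all genes. Among these markers (median 0.33) 9 had an unadjusted p under 0.05 by edgeR, and among 20 hypoxia genes (median 0.06) 7 had. DESeq2 called 1 gene in each of these lists. Of 29 cell cycle genes (median 0.11), 29 nephron progenitor and fetal genes (median 0.13) and 25 genes of gluconeogenesis and glycolysis (median 0.01), 1, 1 and 2 had an unadjusted p under 0.05 by edgeR, and DESeq2 called none. Of 28 markers of the thick limb and distal convoluted tubule 1 rose, Cldn16, a paracellular channel for magnesium and calcium (0.53). That call was lost with each library but KO 1 left out, with the sex covariate and without the filter on low counts. That a list had no call does not show that its genes were alike in the genotypes.

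Markers of neighbouring tissues and of blood cells were also summed, and their part in the results was not tested. Adrenal markers (5 tested) summed to 5.20 to 5.52 CPM in WT and 4.00 to 5.89 CPM in KO, and skeletal muscle markers (4) to 3.00 to 4.93 and 3.34 to 6.44 CPM. Urothelial markers (10) summed to 35.0 to 69.2 and 16.0 to 50.3 CPM, erythroid markers (11) to 647 to 1694 and 653 to 1026 CPM, and lymphocyte and neutrophil markers (12) to 15.6 to 17.8 and 17.4 to 21.6 CPM. No member of these 5 lists was called by edgeR or DESeq2, and at an unadjusted p under 0.05 by edgeR there was 1 muscle marker and 1 lymphocyte or neutrophil marker. The adrenal genes Mc2r, Dbh and Chga, the muscle gene Acta1 and the blood cell genes Ms4a1 and S100a9 were at 0 in at least 1 of the 6 libraries.

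Called genes lay on every autosome. On chromosome 3, which carries Ecm1, 39 of 730 tested genes (5.34%) were called, the highest share of any chromosome, against 3.23% overall and 4.76% on chromosome 9. Cyp7b1, Tspan2 and Tm4sf1 are among those on chromosome 3.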

How the data were processed

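For 18 mouse kidney libraries the authors deposited 1 table of 22063 genes, which gives each gene's estimated count and FPKM in every library, per the file headers. Tools listed in the submitters' processing notes are RSEM, fastp, Bowtie2, HISAT2 2.1.0 and StringTie 1.3.1. The build, annotation and strand setting were not given in the sources used here. Overlapping or antisense genes therefore cannot be separated. Of the counts, 6.86% to 8.44% per library were not whole; they were rounded. The FPKM values the authors deposited served as an alternative, with limma 3.58.1 on log2(FPKM + 1) and log2(FPKM + 0.1).

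The main test was that of edgeR 4.0.16 under R 4.3.3 (quasi-likelihood F test, TMM scaling, default filter by group). All 18 libraries entered 1 model of 6 group means with 12 residual degrees of freedom, and p-values were adjusted by Benjamini-Hochberg over 14774 genes. With 3 libraries against 3, an exact permutation test of 1 gene cannot go below p = 0.1. Log2 CPM used a prior count of 2. Rose and fell are used for genes with an adjusted p under 0.05, and lists were described without a list test.

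Genes named are the 12 rises and 12 falls (Ecm1 among the falls) with the smallest p whose KO libraries all lay outside the WT range (mean of at least 1 CPM, no provisional names), the 6 genes farthest out for each KO library or pair, and up to 5 members of each list with the smallest p. Acsm3, Adipoq, Btg2, Col1a1, Dusp1, Gss, Lum, Mmp2, Slc7a13, Slco4c1 and Zfp36, besides those marked in the text, were named after their values were seen. Some genes that the rule selected are not reported here. The members, the 48 lists, the naming rule and the tests were chosen with earlier results of these data known. DESeq2 1.42.0 was an alternative, as were other scalings, no filter, the 6 libraries alone, a sex covariate, a replicate block and fits without each library. The script was tested on simulated data.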

Additional observations from a re-analysis of the deposited data

Results flagged for a closer look

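In 18 of the genes named above for the smallest p, the difference between KO and WT at 4 weeks itself differed from that at 2 weeks in edgeR's interaction test. Over all genes tested 26 (0.176%) were so called. The genes were picked for their difference at 4 weeks, which is part of the interaction, so many such calls among them are built in. The values here are the log2 fold change at 4 weeks minus that at 2 weeks. It was above 0 for Eln (1.61), Ugt1a2 (6.98), Spp1 (2.14), Cdh6 (1.10), Aldh1a2 (2.01), Tspan2 (1.51), Gsta5 (3.05), Ednrb (0.94) and Ptpro (1.18). It was below 0 for Cyp7b1 (-3.89), Asxl3 (-1.80), Lpl (-2.23), Cndp2 (-1.68), Cmtm6 (-0.95), Ces2b (-3.62), Slc9a8 (-1.34), Chst11 (-1.76) and Hsd17b11 (-1.32). KO 3, the library of 4 weeks without Y-linked transcripts, entered each of these values, and the number of genes so called over all genes tested was 13 without it and 4 with sex as a covariate. That number also rested on other libraries: it was 1 without WT 2, 7 without WT 3, 75 without WT 1 and 233 without KO 1.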

How the results depend on the processing

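None of the 24 called genes with the smallest p changed sign under an alternative; other called genes were not compared for sign. Medians of lists changed sign under at least 1 alternative for cell cycle, calcium and phosphate, lipid uptake, glucuronidation, adrenal, nephron progenitor, sex chromosome, cholesterol synthesis, gluconeogenesis, adipocyte, growth hormone, proximal segments 1 and 2, interferon, oxidative phosphorylation and fatty acid oxidation genes. The 24 genes with the smallest p kept their call in 337 of 360 refits and in every fit without 1 library; 22 of the 23 lost calls came with the 6 libraries alone and 1 (Satb1, 0.32) with log2(FPKM + 1). Genes called higher and lower numbered 448 and 487 by DESeq2, 380 and 158 with library totals, 114 and 152 with the sex covariate, 1 and 1 in the 6 libraries alone, and 41 to 622 and 48 to 579 without 1 library; limma called 165 lower at log2(FPKM + 1) and 160 at log2(FPKM + 0.1). Deviations from the group means were correlated across genes between WT and KO libraries of 4 weeks. The correlations were 0.068, 0.16 and 0.0076 for libraries of the same number and ran from -0.13 to 0.062 for the others. With 3 libraries in each group they cannot show whether replicate numbers pair the libraries. The fit with a replicate block called 459 higher, 472 lower and 23 for the interaction with 1 week. Its median for amino acid genes was -0.18. The interaction with 2 weeks called 180 genes by DESeq2, 4 with the sex covariate and 1 to 233 without 1 library. The interaction with 1 week called 138 by DESeq2, 17 with library totals, 14 without the filter, 21 and 16 on FPKM, and 2 to 289 without 1 library. Of 720 refitted list medians 672 stayed within the spread between replicates. The others by library totals were podocyte 0.59, endothelium 0.21, proximal segments 1 and 2 0.08, collecting duct 0.44, gluconeogenesis 0.12, amino acid 0.00, glutathione 0.12, renin 0.28 and heat shock -0.17. By log2(FPKM + 1) they were fibroblast 0.35, proximal segments 1 and 2 0.08, collecting duct 0.41, gluconeogenesis 0.11, glutathione 0.11, heat shock -0.18, lymphocyte 0.14 and adrenal 0.02. By log2(FPKM + 0.1) they were podocyte 0.57, endothelium 0.21, proximal segments 1 and 2 0.08, collecting duct 0.43, gluconeogenesis 0.11, glutathione 0.11, renin 0.29, heat shock -0.18 and adrenal 0.16. Nephron progenitor (-0.08) and adrenal (-0.30) moved in the 6 libraries alone, and adrenal with the sex covariate (-1.46). Without 1 library the medians ran from 0.35 to 0.51 (podocyte), 0.16 to 0.42 (mesangial), 0.11 to 0.20 (endothelium), 0.22 to 0.34 (collecting duct), -0.22 to -0.09 (amino acid), -0.08 to 0.15 (glucuronidation), 0.17 to 0.87 (female-biased), 0.12 to 0.24 (renin), -0.05 to 0.26 (interferon), -0.00 to 0.19 (nephron progenitor), -2.23 to -0.32 (erythroid), 0.00 to 1.32 (adrenal) and -3.13 to 0.85 (adipocyte). Of 384 list patterns by library, 240 held. The cause of these moves was not tested. Each group has 3 libraries, and of those of 4 weeks KO 3 alone lacks Y-linked transcripts.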
